A study of Pseudotsuga menziesii with 66 samples.

Results

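The 200 Douglas-fir (Pseudotsuga menziesii) transcripts described here had their highest mean level in needles collected on 7 Feb or 23 Feb 2011, in a series that followed 5 trees over 16 dates from 27 Oct 2010 to 26 Oct 2011. They were chosen among 199471 transcripts by level alone. Counts were scaled to the library's total and are given as CPM, the counts of a transcript times 1000000 over all counts of the library and averaged over the trees of a date. The mean of the date means had to lie between 10 and 1000 CPM, and the highest date mean had to be at least 4 times the lowest, with the lowest set to no less than 0.1 CPM. These steps left 4708 transcripts. Of these, 479 were highest on a February date, and in 410 of the 479 every library of that date exceeded the 16-date mean. The 200 with the largest ratio of the highest date mean to the mean of the other dates were taken, 140 of them highest on 7 Feb and 60 on 23 Feb. February against the other dates is therefore a description of the choice and is not tested.

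The deposited tables hold transcript identifiers without gene names. No member can therefore be given a function, and no sequence is shown. As background, the needles of an evergreen conifer stay on the tree through winter. In the cold season they are known to build up freezing tolerance, to change the pigments and proteins of their chloroplasts so that absorbed light is dissipated, and to hold photosynthesis low. These changes are reversed as days warm in spring, before the buds open. Genes active in needles in February belong to the end of the cold season, but which of the members belong to which process was not tested here.

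Each library was made from poly(A) RNA of 1 tree on 1 date, so the replicates of a date are separate trees. All trees had grown in a garden in Central Point, Oregon, from low-elevation Siskiyou seed of 2 localities, the lower one for CCTO43, CCTO46 and CCTO89 and the higher one for CCTO44 and CCTO90. Every sample pooled needles that had formed in 2010, taken around midday from branches on 4 sides of the tree. No tree received a treatment, and the date and the tree are the only factors. The trees of a date share the weather of that day, and a date is a single day, so a test between dates compares the libraries of those days. There were 66 libraries, of 73 that the series' design text counts. Each date had 5 trees from 27 Oct 2010 to 10 Mar 2011, except 23 Feb with 4 because CCTO90 has no library there. From 7 Apr to 17 Aug 2011 there were 4 trees a date. Later dates had fewer, with 2 trees on 7 Sep and 3 on both October dates. CCTO43 has 9 dates and none between 10 Mar and 7 Oct 2011. In whole needles, fewer cells of a type and less RNA per cell cannot be told apart.

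The libraries held 9924771 to 37373284 counts, with a median of 20944426, and a floor of 3 counts corresponds to 0.302 CPM in the smallest. The 20 most abundant transcripts took 7.78% to 48.3% of a library, with a median of 13.7%. The 48.3% belonged to CCTO43 on 26 Oct 2011. After date means were removed, 64 of 66 libraries correlated best with other libraries of their own tree. The CCTO44 and CCTO46 libraries of 17 Aug 2011 were each nearest to the other's tree. Leaving that pair out kept 198 of the 200 members, and leaving out CCTO43 of 26 Oct 2011 kept 190.

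How the libraries are scaled decides part of the membership. The TMM method of edgeR, which sets libraries level on transcripts of middle level, gave totals that relative to the column sums were 0.36 higher on the log2 scale in February than in June to August. With TMM-scaled CPM, 149 of the 200 members were still highest in February, 111 of the 140 and 38 of the 60. Only 129 transcripts of the whole table passed every step of the choice with that scaling, and 94 of them were members. With the authors' deposited normalized values 90 of the 200 members were again among those chosen. The levels below are CPM of the column sum, as the choice used them, while the tests use TMM.

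The members ranged in mean level from 10.1 to 949 CPM with a median of 27.9 CPM, and 40 of them averaged at least 100 CPM. The ratio of the highest date mean to the mean of the other dates had a median of 2.39. It was at least 3 in 34 members and at least 4 in 9. The largest was 12.5 and the next 5.24. The last transcript taken and the first one left out both had a ratio of 2.11, so the lower edge of the set is not a gap in the data.

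The February maximum was mostly a broad one. The highest date mean exceeded the second highest by a median of 1.20-fold, and by at least 1.5-fold in 8 members. In 12 members all libraries of the highest date lay above all libraries of the second highest date. For members highest on 7 Feb the second date was most often 6 Jan (71 of 140), then 23 Feb (31) and 30 Nov (14). For members highest on 23 Feb it was most often 7 Feb (29 of 60), then 10 Mar (16) and 7 Apr (9). The lowest date was 6 May in 48 members and 7 Sep, which rests on 2 trees, in 44.

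The 140 and the 60 differed in the months around February. Members highest on 7 Feb were already at a median of 53.7% of their maximum on 27 Oct 2010, 59.2% on 30 Nov and 75.3% on 6 Jan. They stood at 63.7% on 23 Feb, at 31.4% on 10 Mar and at 20.9% on 6 May. Members highest on 23 Feb began lower, at 41.3% on 27 Oct and 36.2% on 30 Nov, and reached 49.9% on 6 Jan and 75.3% on 7 Feb. They were at 61.7% on 10 Mar and 54.6% on 7 Apr before reaching 29.9% on 6 May. At 10 Mar, 47 of the 60 were at or above 50% of their maximum, against 14 of the 140. In the autumn of 2011 neither group was back at its level of the autumn before, with medians on 26 Oct 2011 of 31.9% and 24.2%. These percentages use column sums, and the fall after February was smaller with TMM. For all members together the median on 10 Mar was 36.9% of the maximum with column sums and 50.3% with TMM. It was 32.3% and 44.8% on 7 Apr, and 22.9% and 32.4% on 6 May. Only on 9 Nov 2010 was the TMM value the lower one, at 57.1% against 57.3%.

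**Figure D1:**
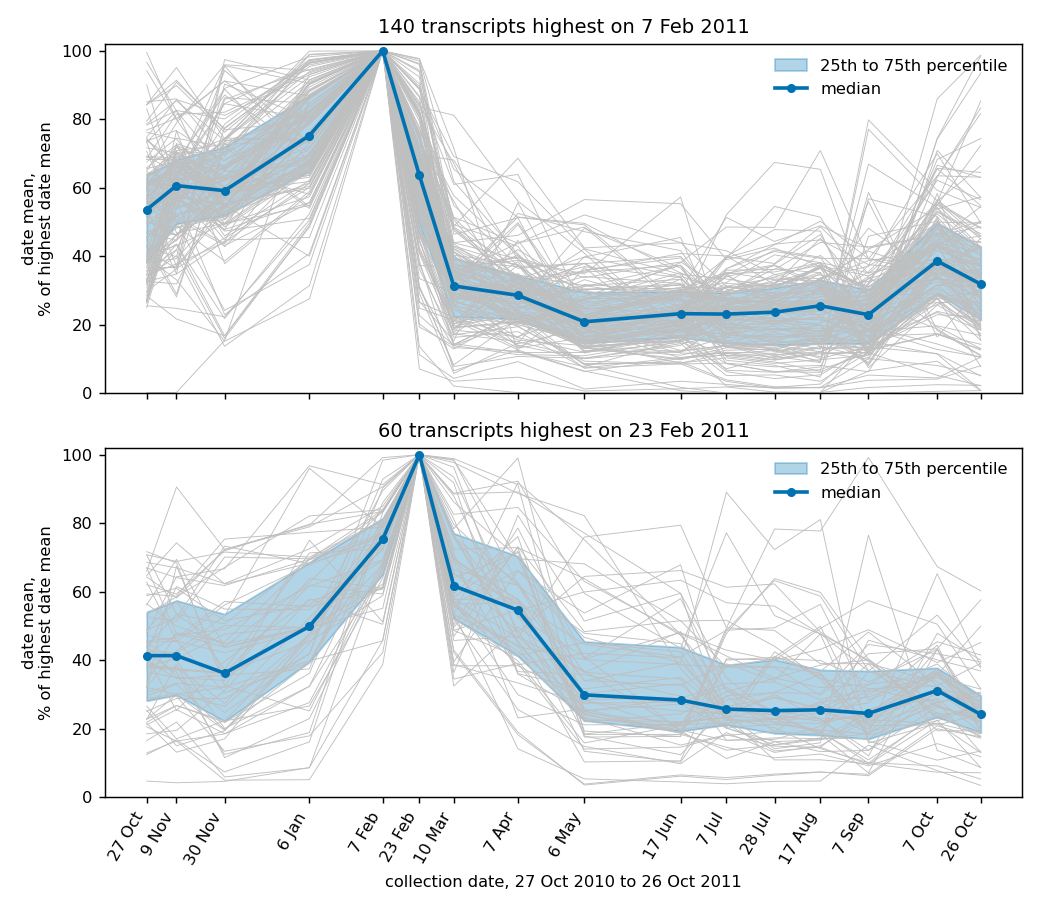
Level of the 200 transcripts on each of the 16 collection dates, as a percentage of each transcript's highest date mean (CPM of the column sum), for the 140 highest on 7 Feb and the 60 highest on 23 Feb 2011. The 7 Feb group is at a median of 75.3% on 6 Jan and 31.4% on 10 Mar, the 23 Feb group at 49.9% and 61.7%.

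Summed over the 200 members, the share of a library's counts was 1.65% ± 0.0577 (SD, n = 5) on 27 Oct 2010 and 2.37% ± 0.162 (n = 5) on 6 Jan. On 7 Feb it was 3.35% in CCTO43, 3.16% in CCTO44, 3.42% in CCTO46, 2.78% in CCTO89 and 3.21% in CCTO90. On 23 Feb it was 2.51% in CCTO43, 2.36% in CCTO44, 2.61% in CCTO46 and 2.70% in CCTO89. Every tree with both dates had its larger share on 7 Feb, which the choice favours, since 140 of the 200 were taken as highest on that date. In CCTO89 the 2 values lay close together. The share was 1.57% ± 0.139 (n = 5) on 10 Mar, 1.28% ± 0.144 (n = 4) on 7 Apr and 0.976% ± 0.126 (n = 4) on 6 May. Its mean stayed below 1% through 7 Sep, which had 0.831% ± 0.216 (n = 2), and was 1.33% ± 0.0800 (n = 3) on 7 Oct. On 26 Oct 2011 CCTO44 had 1.41%, CCTO90 had 1.63% and CCTO43 had 0.531%, the library in which the 20 most abundant transcripts took 48.3% of the counts. These shares use column sums and were not recomputed with TMM. TMM totals relative to column sums averaged 0.11 on the log2 scale on 23 Feb and -0.23 on 10 Mar.

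**Figure D2:**
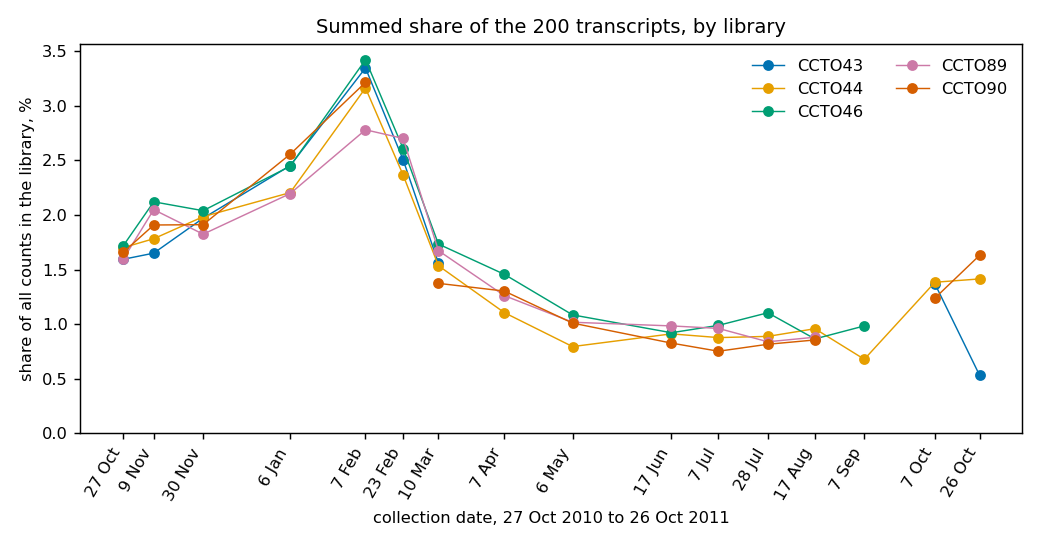
Share of each library's counts (percent) taken by the 200 transcripts together, by date, with 1 point per library coloured by tree. The 5 libraries of 7 Feb lie between 2.78% and 3.42%, and the CCTO43 library of 26 Oct 2011 lies at 0.531%.

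The most extreme member was psme_t163924, with a ratio of 12.5. It was at 0.448 ± 0.514 CPM (n = 5) on 27 Oct 2010 and stood at 28.8 ± 16.3 CPM (n = 5) on 30 Nov. On 6 Jan it stood at 388 CPM in CCTO43, 74.3 in CCTO44, 70.3 in CCTO46, 120 in CCTO89 and 148 in CCTO90. On 7 Feb the same trees had 500, 42.3, 33.1, 290 and 65.1 CPM. So the level went up from January to February in CCTO43 and CCTO89 and went down in the other trees. On 23 Feb it was between 2.98 and 54.8 CPM, and on 10 Mar between 0.604 and 8.55 CPM. Over the 4 libraries of 7 Jul it had 1 count in all.

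The next largest ratio among members highest on 7 Feb was that of psme_t023731. On 30 Nov it had 236 CPM in CCTO43, 86.7 in CCTO44, 123 in CCTO46, 80.1 in CCTO89 and 82.5 in CCTO90. On 7 Feb the values were 164, 170, 62.4, 185 and 54.2 CPM. The ranges of those dates overlap, and 3 of the 5 trees were lower on 7 Feb. Within February the level dropped: on 23 Feb the 4 trees had 6.71 to 12.1 CPM, below every library of 7 Feb. In the autumn of 2011 it was at 3.00 ± 1.58 CPM (n = 3) on 26 Oct, against 75.4 ± 39.2 (n = 5) on 27 Oct 2010.

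Among members highest on 23 Feb, psme_t015762 had the largest ratio, 4.39. On 23 Feb it had 38.7 CPM in CCTO43, 43.8 in CCTO44, 42.2 in CCTO46 and 29.9 in CCTO89. On 7 Feb the same trees had 16.3, 36.9, 23.0 and 10.9 CPM, and CCTO90 had 30.7. Each of the 4 trees was higher on 23 Feb, although the ranges of the 2 dates overlap. The level was 20.8 ± 9.84 CPM (n = 5) on 10 Mar and 5.47 ± 0.414 (n = 4) on 7 Apr.

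The transcript psme_t017971, with a ratio of 4.08, climbed later and stayed high into spring. It was at 6.12 ± 3.84 CPM (n = 5) on 6 Jan and 32.4 ± 15.9 (n = 5) on 7 Feb. On 23 Feb it had 68.8 CPM in CCTO43, 85.9 in CCTO44, 84.3 in CCTO46 and 43.7 in CCTO89, and on 10 Mar 86.6, 68.9, 76.6 and 55.2 CPM in those trees and 62.1 in CCTO90. Those dates cannot be ordered by their libraries, which overlap. The 23 Feb mean lacks CCTO90, and over the trees with both dates the mean was higher on 10 Mar. The level was still 64.5 ± 30.2 CPM (n = 4) on 7 Apr and was 13.0 ± 5.16 (n = 4) on 6 May.

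The members of highest mean level, psme_t017253 and psme_t017186, were both highest on 23 Feb. psme_t017253 averaged 949 CPM over the dates and was expressed all year, from 461 ± 85.6 CPM (n = 4) on 7 Jul to 1889 ± 240 (n = 4) on 23 Feb. Its 23 Feb libraries, at 1661 to 2226 CPM, overlap those of 7 Feb at 1257 to 1911 CPM. psme_t017186 had its lowest mean on 30 Nov, 247 ± 31.4 CPM (n = 5), and was at 330 ± 121 (n = 5) on 6 Jan. It reached 777 ± 173 CPM (n = 5) on 7 Feb, 1839 ± 235 (n = 4) on 23 Feb and 1809 ± 430 (n = 5) on 10 Mar. The 23 Feb mean lacks CCTO90, which had 1534 CPM on 10 Mar. From 23 Feb to 10 Mar CCTO43 and CCTO44 went down and CCTO46 and CCTO89 went up. The mean of these trees was higher on 10 Mar. psme_t017186 then stayed at 1253 ± 203 CPM (n = 4) on 6 May, so its low season was late autumn and not summer.

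**Figure D3:**
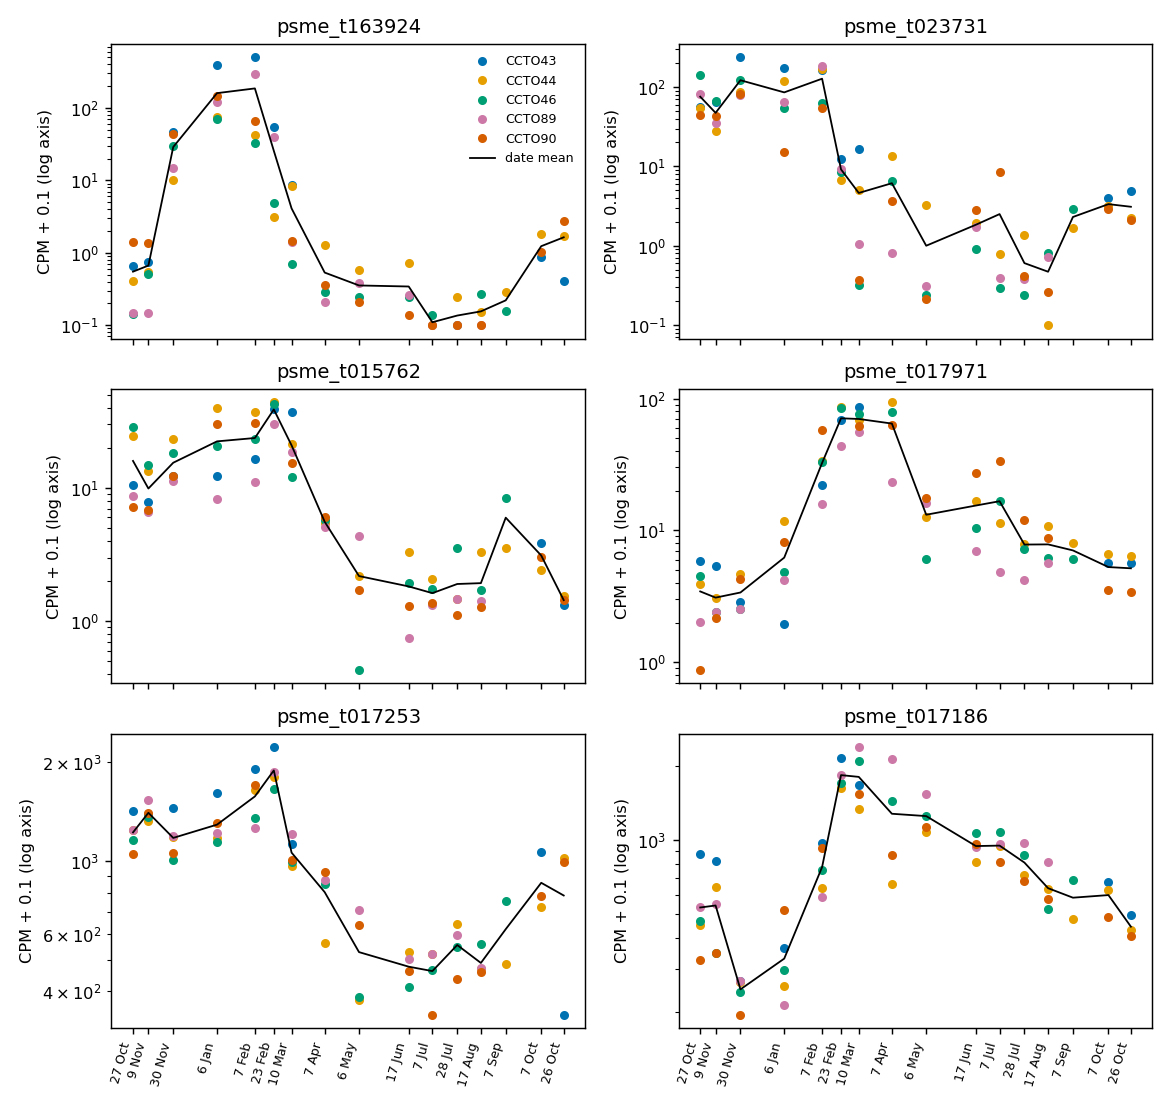
Level in CPM (log axis) of 6 of the transcripts in each library by collection date, coloured by tree: the 2 largest ratios among members highest on 7 Feb, the 2 largest among those highest on 23 Feb, and the 2 of highest mean level. psme_t163924 passes from a mean of 0.448 CPM on 27 Oct 2010 to 186 CPM on 7 Feb, while the date means of psme_t017253 stay between 461 and 1889 CPM.

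Single trees did not all place the maximum where the mean did. The 200 members were highest in February in 187 cases in CCTO43, 170 in CCTO44, 168 in CCTO46, 124 in CCTO89 and 122 in CCTO90, which has no library of 23 Feb. In CCTO89, 59 were highest on 7 Feb and 65 on 23 Feb, and 30 were highest on 9 Nov 2010. In CCTO90, 29 were highest on 6 Jan. Of the 140 members highest on 7 Feb, 135 had more on 7 than on 23 Feb in CCTO43, 135 in CCTO44, 130 in CCTO46 and 91 in CCTO89. The choice favours all these counts, since its date means came from the same libraries. The median ratio of February to the tree's other dates was 1.86 in CCTO43, 2.15 in CCTO44, 2.10 in CCTO46, 1.88 in CCTO89 and 2.45 in CCTO90. February makes up 2 of 9 dates in CCTO43, 2 of 16 in CCTO44 and 2 of 14 in CCTO46. It is 2 of 13 in CCTO89 and 1 of 14 in CCTO90. Differences between trees in these counts and ratios cannot be told apart from the dates each tree covers.

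To read the pattern in libraries that took no part in the choice, the rule was applied to 4 trees at a time and the 200 transcripts so chosen were read in the tree left out. In the left-out tree, 83.5% of them were highest in February in CCTO43, 78% in CCTO44, 78% in CCTO46, 51% in CCTO89 and 54.5% in CCTO90. Among all transcripts passing the level and range steps without that tree the shares were 19.7%, 12.3%, 12.7%, 8.84% and 8.17%. The February mean exceeded the mean of the tree's other dates for 189, 198, 197, 195 and 199 of the 200, against 47.5% to 52.4% of all such transcripts. The median ratio of February to the other dates was 1.83 to 2.28 in the left-out tree. The left-out tree shares the collection days with the others, so these values speak of a further tree and not of a further February. It was also scaled by column sums, as the others were, and these values were not recomputed with TMM.

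**Figure D4:**
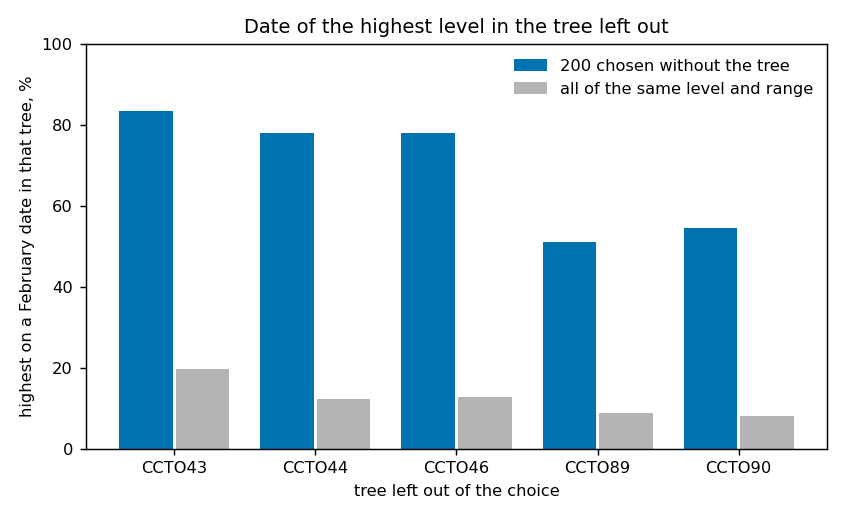
For each tree, the percentage of transcripts whose highest library of that tree was a February one, for the 200 chosen from the other 4 trees and for all transcripts that passed the level and range steps without it. The chosen ones lie between 51% (CCTO89) and 83.5% (CCTO43), the others between 8.17% and 19.7%.

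Trees differed in the level of most members, about as often as for other transcripts of that kind. In the edgeR quasi-likelihood fit with date and tree, 155 of the 200 members differed between trees at a Benjamini-Hochberg adjusted p under 0.05, or 77.5%. The share was 71.5% of all 60931 transcripts tested and 76.8% of the 4708 that passed the level and range steps. The range between the lowest and the highest tree had a median of 0.64 on the log2 scale for the members and 0.66 for the 4708. Of the 155, 54 spanned at least 2-fold and 5 at least 4-fold. CCTO46 was the highest tree in 44 of them, CCTO43 in 39, CCTO90 in 28, CCTO44 in 23 and CCTO89 in 21, so no tree was the highest in most.

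The smallest p between trees belonged to psme_t006461. On 6 Jan it had 31.7 CPM in CCTO43, 39.7 in CCTO44, 25.4 in CCTO46, 28.9 in CCTO89 and 10.0 in CCTO90. On 7 Feb the values were 33.8, 31.8, 30.9, 24.9 and 6.54 CPM. CCTO90 lay below all other trees on both dates, and the fitted span from CCTO90 to CCTO44 was 4.46-fold (edgeR, adjusted p = 1.56e-20). The highest date mean of psme_t006461 was that of 23 Feb, 28.1 ± 8.29 CPM (n = 4), a date without CCTO90. The 23 Feb values were 20.3 CPM in CCTO43, 39.7 in CCTO44, 27.3 in CCTO46 and 24.9 in CCTO89. In these 4 trees the mean was lower on 23 Feb than on 6 Jan or 7 Feb. The next, psme_t018035, was at 30.2 CPM in CCTO43 and 15.9 CPM in CCTO90 on 7 Feb, with a fitted span of 2.36-fold (edgeR, adjusted p = 1.46e-16). In 48 members the tree levels of the 2 seed localities did not overlap, 25 with the trees of the higher locality above and 23 with them below. The background was 29.3% of all transcripts tested, 14.4% above and 15.0% below, and the difference from it was not tested.

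No member passed the test of whether trees differ in how far February stands from the other dates. The tree by February terms gave 0 members at an adjusted p under 0.05 in edgeR and 0 in DESeq2, with 6 members at an unadjusted p under 0.05 in each. The background was 0.00985% of all transcripts tested and 0.0425% of the 4708. The test pools both February dates, and a p that misses the threshold does not show that the trees acted alike.

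The dates on either side of February compared the way into the maximum with the way out. Between 6 Jan and 10 Mar, 146 of the 200 members changed (edgeR, adjusted p under 0.05), 39 higher and 107 lower on 10 Mar, and 82 of the 146 by at least 2-fold. Of all transcripts tested 55.5% were called, 27.7% higher and 27.8% lower. Of the 4708 that passed the level and range steps 81.6% were called, 33.6% higher and 48.1% lower. The median change was -0.50 on the log2 scale for the members, 0.08 for all tested and -0.44 for the 4708. The members' share was 73%, and its difference from these backgrounds was not tested. Members split by the date of their maximum are given as a description only, because that date was read from the same libraries and an early or late maximum favours a fall or a rise. Of the 140 highest on 7 Feb, 6 rose and 103 fell, with a median of -0.92. Of the 60 highest on 23 Feb, 33 rose and 4 fell, with a median of 0.75. TMM totals relative to column sums were higher on 6 Jan than on 10 Mar, and with column sums 26 members rose and 122 fell.

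The largest rise was that of psme_t061411. On 6 Jan it had 1.78 CPM in CCTO43, 0.965 in CCTO44, 3.84 in CCTO46, 0.272 in CCTO89 and 1.23 in CCTO90, and on 10 Mar 40.4, 10.1, 46.8, 28.0 and 19.3 CPM. Every library of 10 Mar lay above every one of 6 Jan, and the change was 4.68 on the log2 scale (SE 0.52, edgeR, adjusted p = 1.1e-10). psme_t017971, whose values are given above, rose by 3.96 (SE 0.43, edgeR, adjusted p = 7.4e-11). The largest fall was that of psme_t163924, -4.99 (SE 0.71, edgeR, adjusted p = 6.86e-08), also with no overlap. psme_t026042 had 659, 357, 327, 299 and 133 CPM on 6 Jan in CCTO43, CCTO44, CCTO46, CCTO89 and CCTO90, and 52.6, 17.4, 5.60, 4.38 and 5.11 CPM on 10 Mar. Its change was -4.33 (SE 0.56, edgeR, adjusted p = 7.33e-09), and it went down in 5 of 5 trees.

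Between late November and January fewer members were called. From 30 Nov to 6 Jan, 32 of the 200 were higher and 0 lower (edgeR, adjusted p under 0.05), 20 of the 140 and 12 of the 60. The background was 2.31% of all transcripts tested, 1.27% higher and 1.04% lower, and 7.07% of the 4708. Of the 4708, 3.29% were higher and 3.78% lower. The median change of the members was 0.25 on the log2 scale, against 0.05 for all tested and -0.06 for the 4708. This count rests on all 5 trees. Without CCTO43 it was 16, without CCTO44 17, without CCTO46 11, without CCTO89 21 and without CCTO90 9, and without the tree as a block it was 12. With only the libraries of 30 Nov and 6 Jan in the fit it was 75, 71 higher and 4 lower. A maximum in February favours a rise towards it, so the direction is in part set by the choice. Transcripts chosen by the same steps for 6 Jan had 15 of 200 higher and 0 lower, a direction that a maximum on 6 Jan itself favours. Those chosen for 10 Mar had 8 of 169 higher and 0 lower.

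psme_t028931 showed the largest such rise. On 30 Nov it had 7.23 CPM in CCTO43, 10.9 in CCTO44, 9.75 in CCTO46, 9.23 in CCTO89 and 6.92 in CCTO90, and on 6 Jan 21.2, 23.0, 30.2, 22.6 and 33.0 CPM. The dates did not overlap, and the change was 1.48 on the log2 scale (SE 0.29, edgeR, adjusted p = 0.00138). Its level went on to 52.3 ± 11.2 CPM (n = 5) on 7 Feb. psme_t004484 went from 47.3 ± 16.1 to 144 ± 85.4 CPM (n = 5 each), with 5 of 5 trees higher and a change of 1.44 (SE 0.24, edgeR, adjusted p = 0.000174). It was higher again in each tree on 7 Feb, at 294 ± 146 CPM (n = 5).

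After 10 Mar the members went both ways. From 10 Mar to 7 Apr, 42 of the 200 changed (edgeR, adjusted p under 0.05), 15 higher and 27 lower. The background was 4.81% of all transcripts tested, 2.74% higher and 2.06% lower, and 12.8% of the 4708, 6.07% higher and 6.73% lower. A maximum in February favours a fall after it, so the direction is in part set by the choice. The split by date of maximum is a description only, as that date was read from the same libraries. Of the 140 highest on 7 Feb, 12 rose and 14 fell. Of the 60 highest on 23 Feb, 3 rose and 13 fell. The count was 26 without CCTO46 and 24 without the tree as a block.

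A second rise in April was seen in psme_t025918. It had 47.4 ± 8.40 CPM (n = 5) on 7 Feb and 12.7 ± 1.76 (n = 4) on 23 Feb. On 10 Mar it had 9.03 CPM in CCTO43, 6.37 in CCTO44, 2.96 in CCTO46, 4.82 in CCTO89 and 13.2 in CCTO90, and on 7 Apr 27.5 in CCTO44, 16.0 in CCTO46, 34.3 in CCTO89 and 27.6 in CCTO90. The dates did not overlap, and the change was 1.94 on the log2 scale (SE 0.23, edgeR, adjusted p = 4.52e-08). psme_t014415, at 2.96 ± 1.71 CPM (n = 5) and then 7.43 ± 3.98 (n = 4), rose by 1.30 (SE 0.33, edgeR, adjusted p = 0.0125). That call was lost without CCTO44 (adjusted p = 0.0679) and without CCTO46 (adjusted p = 0.0711).

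The largest fall into April was that of psme_t054790. It had 106 CPM in CCTO43, 17.1 in CCTO44, 53.2 in CCTO46, 58.9 in CCTO89 and 108 in CCTO90 on 10 Mar, and 12.6, 14.2, 8.01 and 11.8 CPM on 7 Apr in CCTO44, CCTO46, CCTO89 and CCTO90. The dates did not overlap, though CCTO44 was already low in March, and the change was -2.31 (SE 0.41, edgeR, adjusted p = 0.000222). psme_t015762 fell by 1.86 on the log2 scale (SE 0.41, edgeR, adjusted p = 0.00309).

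The same calendar time a year apart was compared next. On 26 Oct 2011, 130 of the 200 members differed from 27 Oct 2010 (edgeR, adjusted p under 0.05), 15 higher and 115 lower, and 80 of the 130 by at least 2-fold. The background was 28.8% of all transcripts tested, 13.8% higher and 15.0% lower, and 59.6% of the 4708, 19.6% higher and 40.0% lower. The median change was -0.73 on the log2 scale for the members, -0.08 for all tested and -0.38 for the 4708. Both groups took part, with 83 of the 140 and 32 of the 60 lower. The needles were a year older, the later date had 3 trees, and age and the weather of those days cannot be told apart. When the fit held no other dates the count was 70, 11 higher and 59 lower. Without the CCTO43 library of 26 Oct 2011 it was 109, 15 higher and 94 lower. Without any library of CCTO43 it was 100, 14 higher and 86 lower.

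The largest falls ended at a few CPM. psme_t023294 had 101 CPM in CCTO43, 400 in CCTO44, 82.5 in CCTO46, 50.7 in CCTO89 and 299 in CCTO90 on 27 Oct 2010, and 1.61 in CCTO43, 1.63 in CCTO44 and 5.11 in CCTO90 on 26 Oct 2011. The years did not overlap, and the change was -6.06 on the log2 scale (SE 0.72, edgeR, adjusted p = 1.29e-08). psme_t021181 went from 117 ± 35.2 CPM (n = 5) to 1.89 ± 0.956 (n = 3), a change of -5.76 (SE 0.61, edgeR, adjusted p = 8.93e-10). Both had been highest on 7 Feb, at 285 ± 117 and 232 ± 72.8 CPM (n = 5 each).

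Rises were fewer and less even among trees. psme_t006561 had 152 CPM in CCTO43, 85.2 in CCTO44 and 239 in CCTO90 on 27 Oct 2010 and 98.8, 456 and 1320 CPM in those trees a year later. By these column-sum values it went up in 2 of 3 trees and down in CCTO43. The fitted change, which uses TMM, was 1.96 (SE 0.34, edgeR, adjusted p = 1.42e-05). The TMM factor of CCTO43 was 1.00 on 27 Oct 2010 and 0.549 on 26 Oct 2011. With TMM the fall in CCTO43 becomes a rise. The value of CCTO90 exceeded any of the 7 Feb libraries, which held 296 to 938 CPM. psme_t017535 went from 22.5 to 23.9 CPM in CCTO43, from 15.0 to 59.6 in CCTO44 and from 17.7 to 78.2 in CCTO90, a fitted change of 1.93 (SE 0.33, edgeR, adjusted p = 1.07e-05). In both, the CCTO43 value of 26 Oct 2011 by column sums lay well below those of the other trees. That library had 48.3% of its counts in 20 transcripts and a TMM factor of 0.549. The factors of that date were 1.23 in CCTO44 and 1.17 in CCTO90, so the gap between the trees is smaller with TMM. How much of the gap that share of counts accounts for was not tested.

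**Figure D5:**
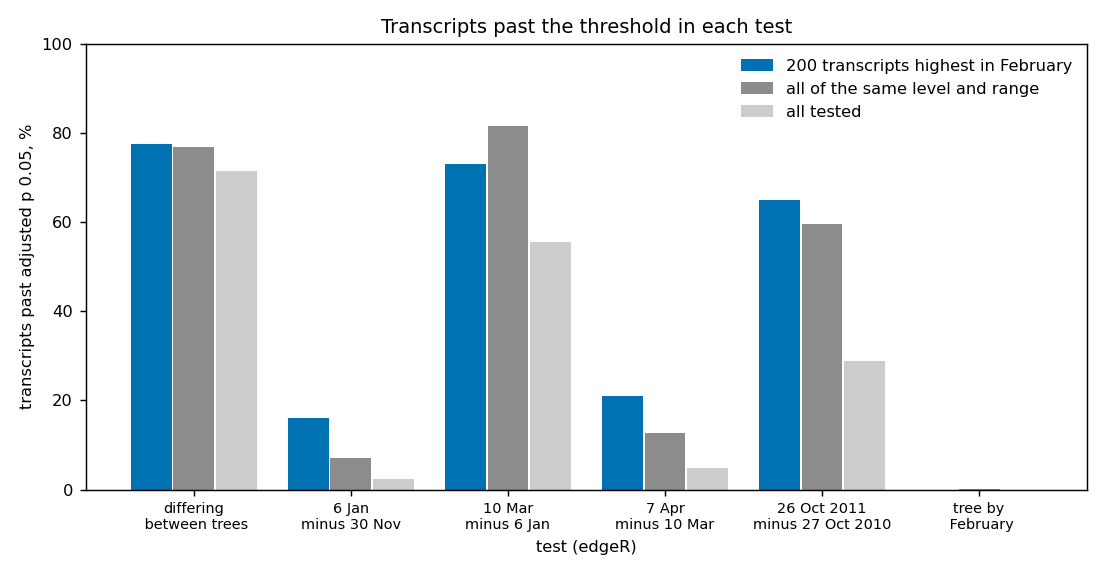
Percentage of transcripts past an adjusted p of 0.05 (edgeR quasi-likelihood) in each comparison, for the 200 transcripts highest in February, for the 4708 that passed the level and range steps and for all 60931 tested. For 26 Oct 2011 against 27 Oct 2010 the 3 shares are 65%, 59.6% and 28.8%, and for 6 Jan against 30 Nov they are 16%, 7.07% and 2.31%.

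Transcripts chosen by the same steps but highest on the neighbouring dates give a frame for the year-apart change. Of the 200 so chosen for 6 Jan, 151 were lower and 0 higher on 26 Oct 2011 than on 27 Oct 2010, with a median of -1.82 on the log2 scale. Of the 169 found for 10 Mar, 29 were lower and 22 higher, with a median of 0.07. The February members, with a median of -0.73, lay between them. Differences between trees were called for 146 of the 200 and for 124 of the 169, shares of 73% and 73.4% beside 77.5% in February. These sets share all libraries, and the differences between sets were not tested.

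The handling of reads from near-identical transcripts is not given in the sources used here, and members that are close copies are uncertain. In 17 of the 19900 pairs of members the ratio of the 2 counts was nearly constant over all 66 libraries, with an SD of the log2 ratio under 0.2. These pairs involve 31 members. Among the 200 highest on 6 Jan there were 6 such pairs with 12 members. The counts of members given above treat each transcript as 1, so the number of separate genes can be lower.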

How the data were processed

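Per the labels' protocols, stranded (dUTP) libraries of poly(A) RNA were run on a HiSeq 2000. Bowtie2 2.2.3, CASAVA 1.8 and DESeq are named in the submitters' processing notes. The sources used here do not give the reference or the counting tool. The authors deposited raw counts of 199471 transcripts for 66 libraries, and these counts are whole numbers. They also deposited a normalized signal for 36145 transcripts, all 200 members among them, each column being the counts divided by 1 factor per library within a relative deviation of 9.99e-15. It served as an alternative for the choice of members, and a deposited table of interpolated signal values was not used. No column was left without a library.

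The deposited counts were tested with edgeR 4.0.16 in R 4.3.3, which uses limma 3.58.1. A filter on low counts (filterByExpr by date, minimum count 10) kept 60931 transcripts, among them all members. Factors were TMM, the dispersion was a trend over level without a value per transcript, and robust quasi-likelihood F tests of date and tree over all libraries were adjusted by Benjamini-Hochberg over all transcripts tested. An SE is the size of the log2 change divided by the root of F. The planned fit also named robust dispersion, which was kept at the quasi-likelihood step. Trees were sampled repeatedly, so the tree was a block. The median correlation of date-centred libraries was 0.71 within trees and -0.20 between trees. The p-values between trees compare single trees. DESeq2 1.42.0 was an alternative. Summaries used pandas 2.3.3 and numpy 2.4.6 in Python 3.11.15. Simulated data with set fold changes served as a check of the scripts.

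The members and lists were chosen with earlier results of these data known. Named are the 2 members with the largest ratio for each February date, the 2 of highest mean level, and per test the 2 largest changes in each direction, or the 2 smallest p between trees. Planned gene lists and cell type markers could not be used, because identifiers have no names. Confidence in low values is limited by counting error, which the floor of 3 counts covers alone. Alternatives were RLE size factors, no filter on low counts, DESeq2, no block, only the libraries of the dates compared and leaving out each tree. Column sums in place of TMM, the CCTO43 library of 26 Oct 2011 left out, and the CCTO44 and CCTO46 libraries of 17 Aug 2011 left out were added after seeing the data.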

Additional observations from a re-analysis of the deposited data

Results flagged for a closer look

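A sample far from the others of its date was looked for in 56 groups of 4 or 5 libraries, and chance flags about 1 in 20 such groups. In 2 groups a library stood apart. On 6 Jan 2011 psme_t163924 was at 388 CPM in CCTO43, while the other 4 trees had 70.3 to 148 CPM. On 10 Mar 2011 psme_t026042 was at 52.6 CPM in CCTO43, while the other 4 trees had 4.38 to 17.4 CPM.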

How the results depend on the processing

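Membership depends on scaling: 90 of the 200 members were again chosen with the deposited normalized values and 94 with TMM-scaled CPM, against 136 to 198 with the other alternatives, including 153 to 165 when a tree was left out. For 6 Jan against 30 Nov, 32 members called became 18 with no filter on low counts, 12 without the replicate block, 75 (71 higher, 4 lower) with only the libraries of those dates, and 9 to 21 when a tree was left out. For 7 Apr against 10 Mar, 42 became 24 without the replicate block and 26 to 45 when a tree was left out. For 26 Oct 2011 against 27 Oct 2010, 130 became 70 with only the libraries of those dates and 106 without the replicate block. For 10 Mar against 6 Jan, 146 became 125 without the replicate block. The mean share of members highest in February in a left-out tree, 69%, was 97.8% by the looser measure of a February mean above the other dates. The cause of these differences was not tested. Fits that left libraries out also held fewer of them. Of 87 recomputed counts, 73 stayed within 1.5 times the reported one or, for the choice, kept at least that share, and 14 did not. The 73 include the 106 and the 125 given above. For 7 Apr against 10 Mar they include each count with a tree left out, except that without CCTO46. Of 204 recomputed values for named transcripts, 202 kept their direction and side of the threshold and 2, both of psme_t014415, lost the call. Dates with 2 or 3 libraries limit what can be seen in autumn 2011.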
